A study of Homo sapiens with 4 samples.

Results

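Transcripts of 9 enzymes of serine synthesis and of the folate cycle were described in HLE cells that stably express CYR61, against HLE cells that carry the empty vector. The rows of the deposited tables were PHGDH, PSAT1 and PSPH (serine synthesis), SHMT1 and MTHFD1 (cytosolic folate enzymes) and SHMT2, MTHFD2, MTHFD1L and ALDH1L2 (mitochondrial folate enzymes), 9 of 20286 genes listed. They were chosen by pathway with their levels in CYR61-expressing and vector cells already known. Their differences between the groups are therefore given as a description, with calls but no p-values, and are not independent evidence. HLE is an established human hepatocellular carcinoma line. CYR61, now named CCN1, is a CCN family protein that cells secrete into the matrix. There were 2 libraries of total RNA from CYR61-expressing cells and 2 from vector cells, and the labels name no further treatment. Each pair came from separate cultures of the whole stable population, per the series' design text. The sources used here give neither the promoter that drives CYR61 nor the number of stable populations made, so the spread between cultures is not the spread between independently made lines.

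Cells make serine from a glycolytic intermediate in a short cytosolic pathway. PHGDH oxidises phosphoglycerate, PSAT1 transfers an amino group to the product and PSPH removes the phosphate to leave serine. Serine hydroxymethyltransferases then pass a carbon unit from serine to tetrahydrofolate and leave glycine. Folate enzymes oxidise or reduce that unit in the cytosol and, in parallel, in mitochondria, which release formate for the synthesis of purines and thymidylate. In human cells many of these genes, mainly those of serine synthesis and the mitochondrial branch, are known targets of ATF4, the transcription factor of the amino acid response.

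The libraries held 16186988 to 21588822 estimated counts, and 14573 to 15068 genes had a count in each. CYR61 itself was at 8090 and 8620 CPM (the standard count scaled to library size, with TMM factors applied) in CYR61-expressing cells, against 221 and 218 CPM in vector cells, in accord with the labels. All 9 enzymes passed the filter on low counts and were among the 12698 genes tested. A gene is called where the edgeR quasi-likelihood test across all genes gave a Benjamini-Hochberg adjusted p under 0.05. Of 6 epithelial and mesenchymal markers, KRT8, KRT18 and VIM were abundant, at 1050 CPM or more in each library. CDH2 was at 49.7 to 59.7 CPM, while the epithelial markers CDH1 (1.04 to 2.6 CPM) and EPCAM (0.318 to 1.36 CPM) were low. Of 9 hepatocyte markers, ALB, APOB and TTR had 0 counts in the 4 libraries. The 9 summed to 35.6 and 33.1 CPM in CYR61-expressing cells, against 23.2 and 21.8 CPM in vector cells. Among them FGB, a fibrinogen chain gene, was called higher (edgeR adjusted p = 0.000437). FGB alone was at 20.8 and 18.2 CPM in CYR61-expressing cells, against 5.84 and 5.03 CPM in vector cells. The other 3 tested markers, HNF4A (log2 fold change -0.41), TF (-0.13) and SERPINA1 (-0.05), were not called. Of 8 markers of other cell types, CD3E and LYVE1 had 0 counts in the 4 libraries. The list summed to 73.6 and 79.3 CPM in CYR61-expressing cells, against 101 and 87.6 CPM in vector cells. Most of that sum came from CD68 and COL1A1, and neither was called. CD68 was at 48.1 and 53.3 CPM in CYR61-expressing cells, against 67.2 and 62.6 CPM in vector cells. COL1A1 was at 23.1 and 23.9 CPM in CYR61-expressing cells, against 31.0 and 22.9 CPM in vector cells. The part of these markers in the results below was not tested. In RNA from whole cultures, fewer cells that express a gene and less RNA per cell cannot be told apart.

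Of the 9 enzymes, 6 were called lower in CYR61-expressing cells and 0 higher. By the same rule 4.56% of all tested genes were called lower, 1.83% higher and 6.39% in either direction. Nothing is read from that contrast because the choice of enzymes used it. By unadjusted p under 0.05 in edgeR, and by DESeq2 and limma-voom, 0 of the 9 were higher as well. The called genes were all 3 of serine synthesis (PHGDH, PSAT1 and PSPH) and 3 of 4 in the mitochondrial branch (SHMT2, MTHFD2 and ALDH1L2). Neither cytosolic enzyme was called by edgeR, DESeq2 or limma-voom or at an unadjusted p under 0.05. In 8 of the 9 both CYR61 libraries were below both vector libraries, as they were for 27.7% of tested genes; for 23.9% of tested genes both were above. The median log2 fold change was -0.97 over the 9 enzymes and -0.006 over all tested genes.

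**Figure D1:**
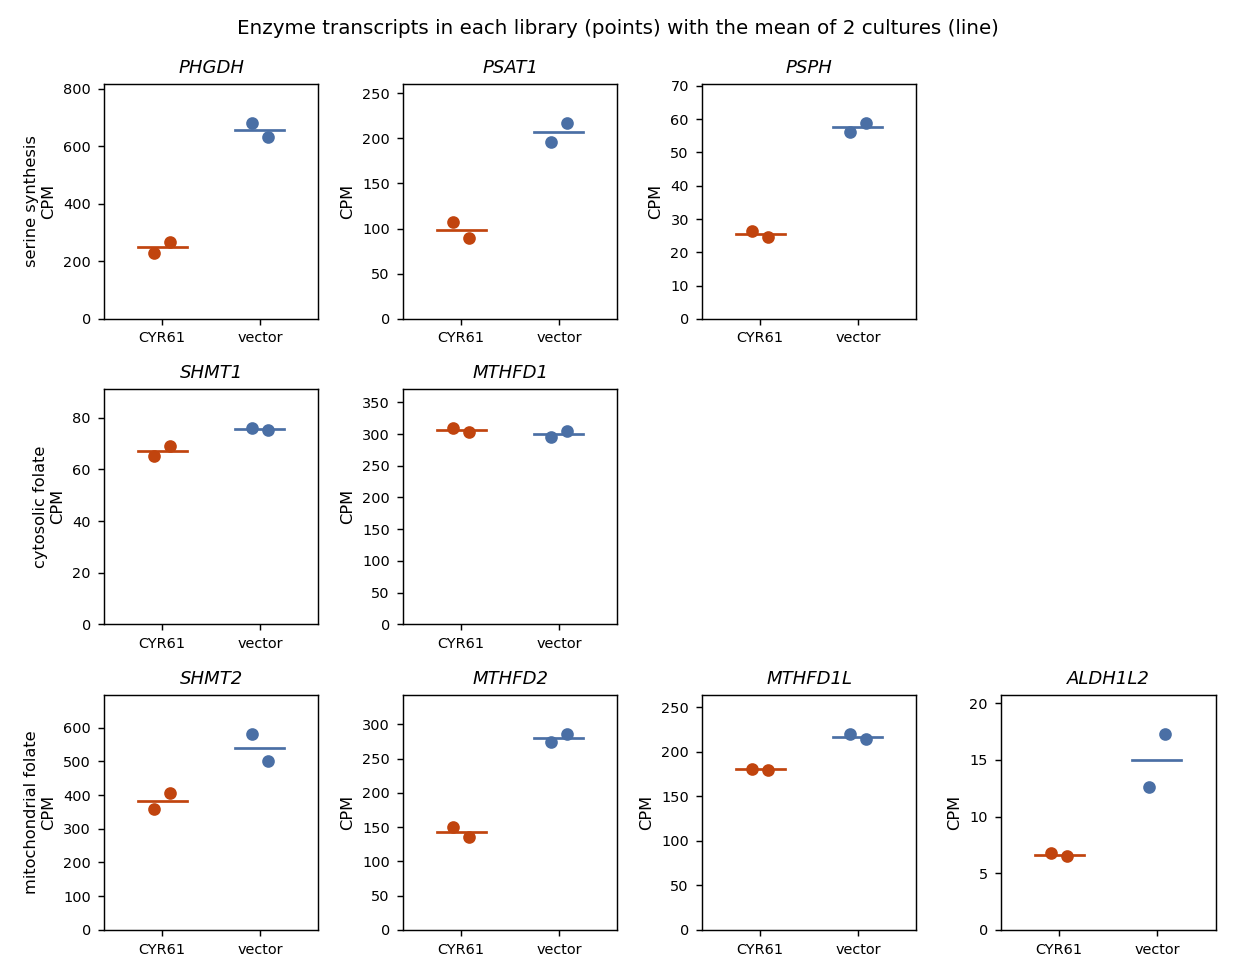
CPM of each enzyme transcript in the 2 CYR61 libraries and the 2 vector libraries (points) with the group mean (line); each panel has its own axis from 0. The groups are well apart for PHGDH, PSAT1, PSPH and MTHFD2, while MTHFD1 lies at 303 to 309 CPM in CYR61-expressing cells and 296 to 305 CPM in vector cells.

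Transcripts of all 3 serine synthesis enzymes were lower in CYR61-expressing cells. PHGDH (ENSG00000092621, hg38 chromosome 1, 119648411 to 119744226, plus strand), the entry enzyme, was at 230 and 267 CPM in CYR61-expressing cells, against 682 and 633 CPM in vector cells. Both CYR61 libraries were far below both vector libraries. The log2 fold change was -1.40 (SE 0.12), which is 37.8% of the vector level. Of the 12698 tested genes, 1.3% had a change as low or lower.

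PSAT1 (ENSG00000135069, chromosome 9, 78297143 to 78330093, plus strand), the aminotransferase of the middle step, was at 107 and 89.1 CPM in CYR61-expressing cells, against 196 and 217 CPM in vector cells. The log2 fold change was -1.07 (SE 0.13), or 47.5% of the vector level. PSAT1 and PHGDH differed in opposite directions between the 2 CYR61 libraries, and also between the 2 vector libraries. GC content was 42.3% for the longest PSAT1 transcript and 52.3% for that of PHGDH. After removal of each library's trend on GC content the log2 fold changes were -1.08 for PSAT1 and -1.34 for PHGDH, so both differences were of like size without that trend.

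PSPH (ENSG00000146733, chromosome 7, 56011051 to 56051604, minus strand), the phosphatase of the last step, was the least abundant of the 3 per kilobase. It was at 26.4 and 24.5 CPM in CYR61-expressing cells, against 56.1 and 58.9 CPM in vector cells. The log2 fold change was -1.17 (SE 0.13), or 44.3% of the vector level. The groups did not overlap, and the replicates of each group differed by 0.1 or less on the log2 scale. GENCODE lists a pseudogene of PSPH, PSPHP1, and 4 of PSAT1. The sources used here do not say how reads shared with such copies were assigned.

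The proportions between the 3 genes overlapped between the groups. Per kilobase of exon, the ratio of PSAT1 to PSPH was 5.14 and 4.58 in CYR61-expressing cells, against 4.42 and 4.65 in vector cells. The ratio of PHGDH to PSPH was 2.61 and 3.26 in CYR61-expressing cells, against 3.64 and 3.22 in vector cells. That of PHGDH to PSAT1 was 0.508 and 0.711 in CYR61-expressing cells, against 0.824 and 0.691 in vector cells. With the GC trend removed, the log2 fold changes were -1.34 for PHGDH (SE 0.07), -1.08 for PSAT1 (SE 0.06) and -1.13 for PSPH (SE 0.09). The overlap of the ratios therefore does not show that the proportions were equal.

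The bases before the start of transcription are shown for PHGDH and PSAT1 because the 2 genes fell together. They come from RefSeq on GRCh38.p14, whose promoter table held 6 of the 9 genes, and cover the 250 bases upstream of the start, 5′ to 3′ on the strand of the gene. The PHGDH stretch is chr1:119711684-119711933, plus strand, inside the longer gene span that GENCODE gives. The PSAT1 stretch is chr9:78296875-78297124, plus strand. Capitals mark the letters searched on both strands, which were TGATGNAA (the core of the C/EBP-ATF response element that ATF4 binds), CACGTG (the E-box that MYC and MAX bind) and CCAAT (the box bound by NF-Y). CCAAT was added after the sequences were seen.
PHGDH: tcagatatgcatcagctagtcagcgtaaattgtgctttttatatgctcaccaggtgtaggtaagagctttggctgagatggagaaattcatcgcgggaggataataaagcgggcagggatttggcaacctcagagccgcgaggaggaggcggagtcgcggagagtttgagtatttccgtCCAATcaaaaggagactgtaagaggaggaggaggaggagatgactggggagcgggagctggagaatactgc
PSAT1: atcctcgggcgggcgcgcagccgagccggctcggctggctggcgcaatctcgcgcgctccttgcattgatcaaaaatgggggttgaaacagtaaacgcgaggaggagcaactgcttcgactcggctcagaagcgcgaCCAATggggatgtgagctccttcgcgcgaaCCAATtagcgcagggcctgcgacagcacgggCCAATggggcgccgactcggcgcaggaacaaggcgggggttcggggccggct
In these stretches PHGDH held 1 CCAAT, 71 bases upstream of the start, and PSAT1 held 3, at 113, 83 and 52 bases upstream. Neither held the other motifs.

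Transcripts of the cytosolic folate enzymes were close to their vector level. MTHFD1 (ENSG00000100714, chromosome 14, 64388031 to 64463457, plus strand), which carries 3 folate activities in a single cytosolic protein, was at 309 and 303 CPM in CYR61-expressing cells, against 296 and 305 CPM in vector cells. The groups overlapped, and the log2 fold change was 0.03 (SE 0.11). Its exons share 178 bases with ZBTB25 on the opposite strand, at 28.5 CPM or less in each library. MTHFD1 exons also share 756 bases with AL122035.2 and 101 with AL122035.1 on the opposite strand. Neither was among the genes listed, so their levels are not known. SHMT1 (ENSG00000176974, chromosome 17, 18327860 to 18363563, minus strand), the cytosolic serine hydroxymethyltransferase, was at 65.1 and 69 CPM in CYR61-expressing cells, against 75.9 and 75.3 CPM in vector cells. SHMT1 was thus lower in both CYR61 libraries, by a log2 fold change of -0.17 (SE 0.12) that was not called. Exons of SHMT1 share 196 bases, 2.69% of their length, with SMCR8 on the opposite strand. The summed CPM of both genes was 148 and 161 in CYR61-expressing cells, against 157 and 158 in vector cells.

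In the mitochondrial branch 3 of 4 enzymes were called lower, by amounts that differed between them. MTHFD2 (ENSG00000065911, chromosome 2, 74198562 to 74217565, plus strand), the mitochondrial methylenetetrahydrofolate dehydrogenase, was at 150 and 136 CPM in CYR61-expressing cells, against 274 and 286 CPM in vector cells. That is a log2 fold change of -0.97 (SE 0.11), or 51% of the vector level, with no overlap between the groups. GENCODE lists 7 pseudogenes of MTHFD2. Its exons share 1324 bases with SLC4A5 on the opposite strand, which was at 1.04 CPM or less in each library.

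SHMT2 (ENSG00000182199, chromosome 12, 57229327 to 57234935, plus strand), which takes the carbon unit from serine in mitochondria, was at 358 and 405 CPM in CYR61-expressing cells, against 582 and 500 CPM in vector cells. The CYR61 libraries differed by 0.18 on the log2 scale and the vector libraries by 0.22, while the nearest libraries of the 2 groups were 0.30 apart. The log2 fold change was -0.50 (SE 0.12), or 70.5% of the vector level. This call was the least stable of the 6. It was lost without the first CYR61 library (log2 fold change -0.41), without the first vector library (-0.39), with RLE size factors (-0.49) and with the replicate number as a block (-0.50). Its exons share 33 bases with NDUFA4L2 on the opposite strand, which was at 4.56 and 6.26 CPM in CYR61-expressing cells and 20.8 and 15.9 CPM in vector cells. SHMT2 exons also share 427 bases with AC137834.2 on the opposite strand. That gene was not among those listed, so its level is not known.

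MTHFD1L (ENSG00000120254, chromosome 6, 150865549 to 151101887, plus strand), the mitochondrial formyltetrahydrofolate synthetase that releases formate, was at 181 and 179 CPM in CYR61-expressing cells, against 220 and 214 CPM in vector cells. The groups did not overlap and the replicates lay within 0.04 of each other on the log2 scale, but the log2 fold change of -0.27 (SE 0.11) was not called. With the GC trend removed it was called lower (-0.21, SE 0.06). That fit called 11.5% of tested genes lower and 17.1% higher.

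ALDH1L2 (ENSG00000136010, chromosome 12, 105019784 to 105084577, minus strand), the mitochondrial formyltetrahydrofolate dehydrogenase, was the rarest of the 9 per kilobase. It had 145 and 104 estimated counts (6.74 and 6.51 CPM) in CYR61-expressing cells, against 237 and 383 (12.6 and 17.3 CPM) in vector cells. The log2 fold change was -1.18 (SE 0.20), or 44.3% of the vector level, and the vector libraries differed by 0.46 on the log2 scale. This value is uncertain. Its exons share 145 bases, 1.7% of their length, with C12orf45 on the opposite strand. C12orf45 was at 22.5 and 17.8 CPM in CYR61-expressing cells and 15.5 and 15.8 CPM in vector cells. The sum of both genes was 29.2 and 24.4 CPM in CYR61-expressing cells, against 28.1 and 33.2 CPM in vector cells. These sums overlap, but C12orf45 made up most of them in CYR61-expressing cells. The part of the shared bases in the ALDH1L2 difference was not tested.

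**Figure D2:**
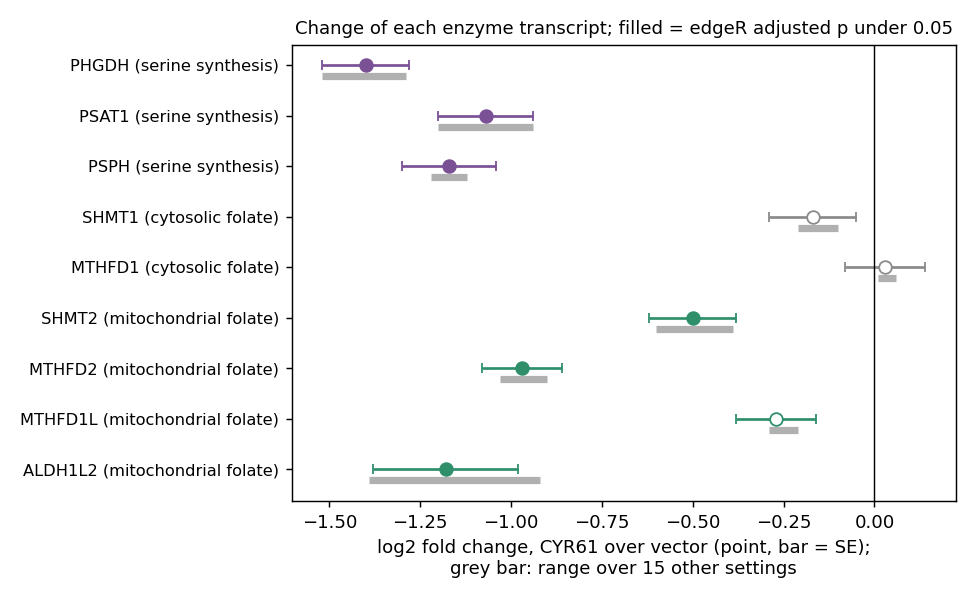
Log2 fold change of each enzyme transcript, CYR61 over vector (points, with the SE as bars; filled where called), and its range over 15 other settings of the analysis (grey). The 3 serine synthesis genes, MTHFD2 and ALDH1L2 stay at or below -0.90 in each setting, SHMT2 spans -0.60 to -0.39, and SHMT1, MTHFD1 and MTHFD1L lie nearer to 0.

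The same upstream stretch is shown for MTHFD1, MTHFD2 and MTHFD1L, because the cytosolic MTHFD1 and the mitochondrial MTHFD2 share activities and differed in response, and MTHFD1L was the gene with a TGATGNAA match. The stretches are chr14:64388103-64388352 for MTHFD1, chr2:74198365-74198614 for MTHFD2 and chr6:150866236-150866485 for MTHFD1L, each on the plus strand of GRCh38.p14. RefSeq gave 4 start positions for MTHFD1L, of which the first listed is printed. Capitals mark the same letters as above.
MTHFD1: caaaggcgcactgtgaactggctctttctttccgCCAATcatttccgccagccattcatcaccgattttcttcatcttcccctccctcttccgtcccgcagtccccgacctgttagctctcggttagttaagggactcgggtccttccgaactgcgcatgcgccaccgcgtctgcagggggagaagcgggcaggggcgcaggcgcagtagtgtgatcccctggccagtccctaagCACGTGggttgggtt
MTHFD2: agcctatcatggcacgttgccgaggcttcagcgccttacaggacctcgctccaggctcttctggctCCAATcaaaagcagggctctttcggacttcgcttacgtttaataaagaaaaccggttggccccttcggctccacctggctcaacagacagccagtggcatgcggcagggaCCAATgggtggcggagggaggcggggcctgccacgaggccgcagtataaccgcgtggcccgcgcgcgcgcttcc
MTHFD1L: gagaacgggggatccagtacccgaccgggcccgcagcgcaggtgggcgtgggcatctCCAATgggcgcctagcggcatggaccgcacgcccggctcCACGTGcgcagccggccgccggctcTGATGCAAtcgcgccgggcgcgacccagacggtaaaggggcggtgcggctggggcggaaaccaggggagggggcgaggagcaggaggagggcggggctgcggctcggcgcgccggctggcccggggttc
MTHFD1L held TGATGCAA 129 bases and CACGTG 154 bases upstream of this start, and MTHFD1 held CACGTG 15 bases upstream. MTHFD2 held 2 CCAAT boxes, 184 and 74 bases upstream. In the full windows of 300 bases, which add the 50 bases after the start, TGATGNAA occurred in 1 of the 6 genes with a window and in 4.46% of all 27305 genes in the table. CACGTG occurred in 2 of the 6 and in 8.77% of all genes, and CCAAT in 6 of the 6 and in 39.7%. The single gene of the 6 with TGATGNAA was not called, and the matches are a description of these letters in this window only.

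Levels can be set against each other only per length, and the length used mattered. Per kilobase of the union of exons, CYR61-expressing cells had the order SHMT2 (78.8 CPM per kilobase), PSAT1 (44.9), MTHFD1L (35.9), MTHFD1 (32.6), MTHFD2 (29.3), PHGDH (26.9), PSPH (9.22), SHMT1 (9.21) and ALDH1L2 (0.779). There MTHFD2 and PHGDH did not differ beyond the spread of the cultures, nor did PSPH and SHMT1. Vector cells had the order SHMT2 (112 CPM per kilobase), PSAT1 (94.5), PHGDH (71.3), MTHFD2 (57.5), MTHFD1L (43.3), MTHFD1 (32), PSPH (20.8), SHMT1 (10.4) and ALDH1L2 (1.76). In that order each gene was above the next in both vector libraries. With the length of the longest transcript, PHGDH was second in CYR61-expressing cells (78.1 CPM per kilobase) and first in vector cells (207). SHMT2 had the highest level in CYR61-expressing cells and ALDH1L2 the lowest in both groups with either length.

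In 3 pairs of a mitochondrial enzyme and its cytosolic counterpart, the transcript of the mitochondrial one was relatively less abundant in CYR61-expressing cells. Per kilobase of exon, the ratio of MTHFD2 to MTHFD1 was 0.932 and 0.863 in CYR61-expressing cells, against 1.78 and 1.81 in vector cells. With the longest transcripts it was 0.74 and 0.685 in CYR61-expressing cells, against 1.42 and 1.44 in vector cells. MTHFD2 was thus the less abundant of the pair in CYR61-expressing cells and the more abundant in vector cells with either length. The ratio of SHMT2 to SHMT1 was 8.28 and 8.83 in CYR61-expressing cells, against 11.5 and 10.0 in vector cells. That of MTHFD1L to MTHFD1 was 1.09 and 1.1 in CYR61-expressing cells, against 1.39 and 1.31 in vector cells. In these 3 ratios the groups did not overlap, which is a description because the enzymes were chosen on this contrast. Among single tested genes, both CYR61 libraries were below both vector libraries for 27.7% and above them for 23.9%. The share among ratios was not computed, and the ratios of MTHFD2 and MTHFD1L share MTHFD1. For SHMT2 to SHMT1 the nearest libraries of the groups (8.83 and 10.0) lay closer than the vector libraries (10.0 and 11.5).

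Summed per kilobase of exon, the 9 transcripts were at 267 and 268 CPM in CYR61-expressing cells, against 448 and 439 CPM in vector cells. Serine synthesis summed to 81 ± 3.46 CPM per kilobase in CYR61-expressing cells and 186 ± 3.54 in vector cells (mean ± SD, n = 2 each). The mitochondrial branch summed to 145 ± 4.24 in CYR61-expressing cells and 214 ± 10.6 in vector cells. The cytosolic pair summed to 41.9 and 41.8 in CYR61-expressing cells and 42.0 and 42.8 in vector cells. In the CYR61 libraries SHMT1 (8.95 and 9.47) and MTHFD1 (32.9 and 32.4) differed in opposite directions. The share of the total held by serine synthesis was 31.3% and 29.3% in CYR61-expressing cells, against 41.1% and 43.1% in vector cells. The cytosolic share was 15.7% and 15.6% in CYR61-expressing cells, against 9.38% and 9.75% in vector cells. The mitochondrial share was 53.2% and 55.2% in CYR61-expressing cells, against 49.6% and 47.2% in vector cells. The serine synthesis share was thus smaller and the cytosolic and mitochondrial shares larger in CYR61-expressing cells, although the summed mitochondrial level was lower. With the longest transcripts the 3 shares differed in the same directions, the mitochondrial one at 48.4% and 49.3% in CYR61-expressing cells, against 42.4% and 40.7% in vector cells.

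**Figure D3:**
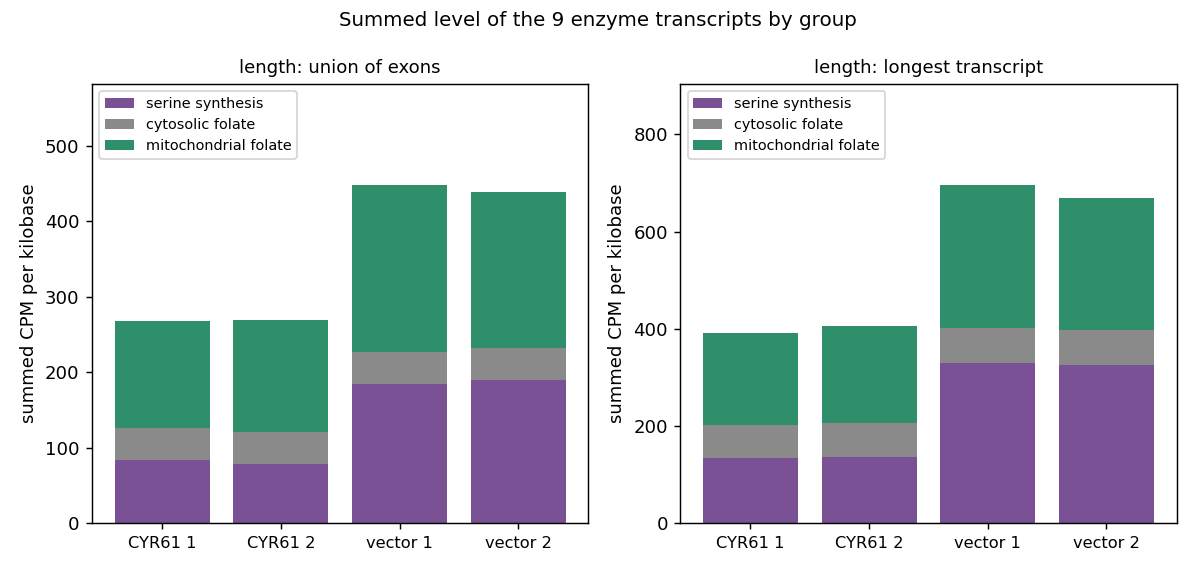
Summed level of the 9 transcripts in each library, in CPM per kilobase, by enzyme group and with each of 2 gene lengths. With the union of exons, serine synthesis stands at 83.5 and 78.6 in the CYR61 libraries and at 184 and 189 in the vector libraries, while the cytosolic pair stays between 41.8 and 42.8.

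The wider pathway was read from 6 lists, which leave out the 9 enzymes. These lists were also chosen with earlier results of these data known. Their counts and adjusted p-values are therefore a description too, and not independent evidence. Of 59 genes on them, 48 were tested, 8 were called lower in CYR61-expressing cells and 1 higher, with a median log2 fold change of -0.02. Over all tested genes 4.56% were called lower and 1.83% higher, so 1 higher of 48 was near the overall share. The same shares apply to the counts by list below. Of 12 genes for the transport of folate, serine and glycine, 10 were tested, 3 fell and 1 rose. SLC1A4, a carrier of neutral amino acids that include serine, was at 40.1 and 41.0 CPM in CYR61-expressing cells, against 91.4 and 86.5 CPM in vector cells. It fell by 1.13 on the log2 scale (SE 0.12, edgeR adjusted p = 0.000757). SLC6A9, the glycine transporter GLYT1, was at 58.8 and 78.5 CPM in CYR61-expressing cells, against 153 and 138 CPM in vector cells (-1.09 on the log2 scale, SE 0.15, adjusted p = 0.00259 by edgeR). SLC1A5, the glutamine and neutral amino acid carrier ASCT2, was at 267 and 298 CPM in CYR61-expressing cells, against 459 and 435 CPM in vector cells (-0.66 on the log2 scale, SE 0.11, adjusted p = 0.00771 by edgeR), and its call was lost with the replicate block.

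SLC25A32, the mitochondrial folate carrier, was the gene called higher. It was at 53.9 and 45.0 CPM in CYR61-expressing cells, against 32.5 and 34.8 CPM in vector cells (0.56 on the log2 scale, SE 0.14, adjusted p = 0.0471 by edgeR). The call was lost in 7 of 15 other settings, such as without the first CYR61 library (0.43), without the first vector library (0.51) or without the second vector library (0.61). The uptake genes SLC19A1, the reduced folate carrier (log2 fold change 0.48), and SLC46A1, the proton-coupled one (-0.07), were not called, although SLC19A1 was in 5 of 15 other settings. SLC19A1, SLC46A1, TYMS, MTHFD2L, ALDH1L1, DLD, GLDC, AMT, MYC and the kinases below were picked for naming after their values were seen.

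Folate enzymes outside the 9 were not called by edgeR. Of 13, 11 were tested, 0 fell and 0 rose; at an unadjusted p under 0.05, 1 was lower and 2 higher, DESeq2 called 1 lower and 0 higher, and limma-voom called none. TYMS, thymidylate synthase, had a log2 fold change of 0.26 and MTHFD2L, the paralog of MTHFD2, one of -0.01. ALDH1L1, the cytosolic counterpart of ALDH1L2, had 0 counts in the 4 libraries. The glycine cleavage system was measured by 2 of its 4 genes, GCSH (0.23, edgeR adjusted p = 0.302) and DLD (-0.01), and neither was called by edgeR, DESeq2 or limma-voom or at an unadjusted p under 0.05. GLDC and AMT were too low to test, at 10 counts or fewer in each library.

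Of 8 genes of serine breakdown and serine use, 7 were tested and 0 were called by edgeR, DESeq2 or limma-voom. At an unadjusted p under 0.05 there was 1 lower, SPTLC3, a serine palmitoyltransferase subunit (-1.04 on the log2 scale, SE 0.42, adjusted p = 0.171 by edgeR), with 19 and 8 counts in CYR61-expressing cells and 28 and 32 in vector cells. Of 13 genes of the methionine cycle and transsulfuration, 9 were tested and 2 fell, CBS and CTH. These are the enzymes that carry the sulfur of homocysteine to cysteine, CBS with serine as the acceptor. CTH was at 14.6 and 16.2 CPM in CYR61-expressing cells, against 33.4 and 39 CPM in vector cells (-1.23 on the log2 scale, SE 0.16, adjusted p = 0.00179 by edgeR). CBS was at 34.2 and 37.1 CPM in CYR61-expressing cells, against 85 and 76.2 CPM in vector cells (-1.18, SE 0.13, edgeR adjusted p = 0.000878). CBS is uncertain because GRCh38 carries a near-identical copy of it.

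Of 9 regulators, 3 fell, and 0 rose by edgeR, DESeq2 or limma-voom or at an unadjusted p under 0.05. ATF4 was at 153 and 177 CPM in CYR61-expressing cells, against 264 and 232 CPM in vector cells (-0.59 on the log2 scale, SE 0.12, adjusted p = 0.0213 by edgeR). Its call was lost without the first CYR61 library (-0.48), without the first vector library (-0.50) and with the replicate block (-0.59). DDIT3, which encodes CHOP, was at 8.32 and 9.14 CPM in CYR61-expressing cells, against 26.2 and 25.2 CPM in vector cells (-1.56, SE 0.16, edgeR adjusted p = 0.000617). CEBPB, a C/EBP factor that pairs with ATF4, was at 73.4 and 85.4 CPM in CYR61-expressing cells, against 169 and 155 CPM in vector cells (-1.03, SE 0.12, edgeR adjusted p = 0.0015). MYC (-0.26) and the 4 kinases of eIF2, EIF2AK1 (-0.11), EIF2AK2 (0.26), EIF2AK3 (0.06) and EIF2AK4 (0.23), were not called. ATF4 and 6 of the enzymes were lower in the same libraries, and the part of any regulator in these differences was not tested.

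**Figure D4:**
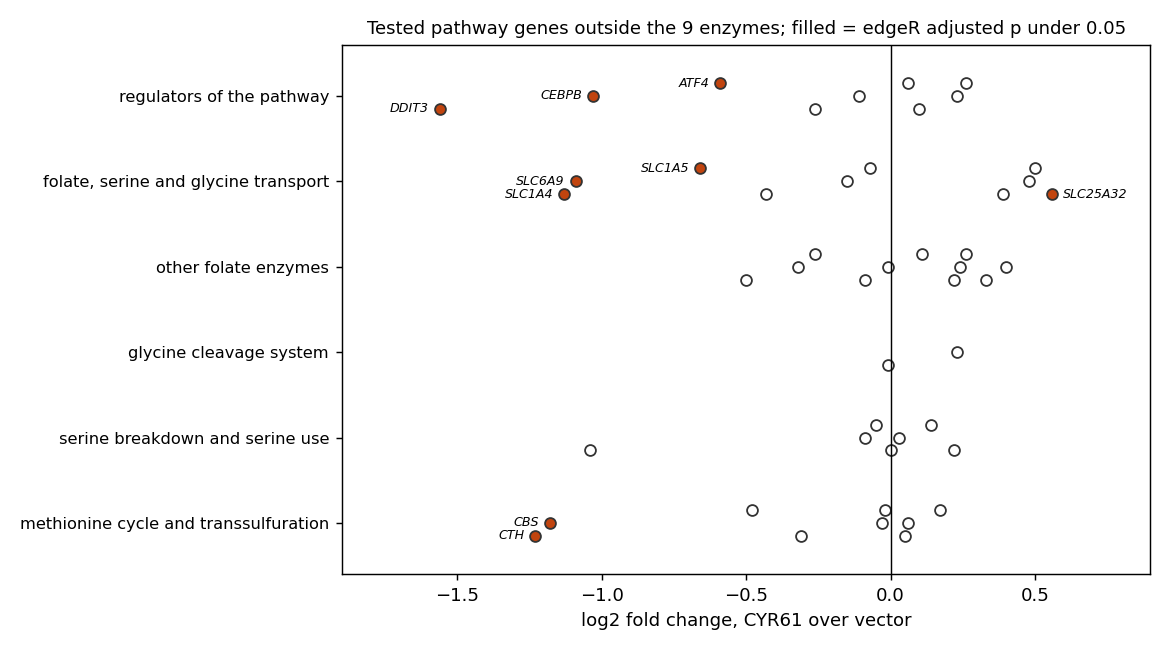
Log2 fold change, CYR61 over vector, of the 48 tested genes on 6 pathway lists outside the 9 enzymes (each point a gene; filled and labelled where called by edgeR). The 8 called lower are 3 regulators, 3 carriers and the transsulfuration genes CBS and CTH, while none of the other folate enzymes is filled.

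The tested genes with the profile nearest to that of PHGDH over the 4 libraries were ADGRA2, NOTUM, LBH, DUSP4 and MYEOV. The measure was the root mean square difference of centred log2 CPM, which was 0.0425 to 0.0549 for these 5. Nearest to MTHFD2 were MYH10, PXK, KIF26B, ST3GAL5 and U2AF1L4, at 0.012 to 0.0335. With 4 libraries many genes share such a profile, so these neighbours are a description only.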

How the data were processed

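For each library the authors deposited estimated counts by Ensembl gene, of which 11.2% to 12% were not whole numbers. Per the submitters' processing notes the build was hg38 and TopHat2 2.1.1, Cufflinks 2.2.1 and Cuffdiff 1.3.0 were used. Counting program, annotation and strandedness are not given in the sources used, so overlapping or antisense genes cannot be separated.

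Counts were rounded, filtered with edgeR's filterByExpr, scaled by TMM and fitted on group alone with edgeR 4.0.16 (quasi-likelihood, R 4.3.3, Benjamini-Hochberg adjustment over all tested genes, threshold 0.05). SEs were taken from each fold change and its F statistic (absolute log2 value over root F). DESeq2 1.42.0 and limma-voom (limma 3.58.1) were alternatives. Symbols came from a gene name table (20228 of 20286 identifiers) and positions, lengths and GC content from GENCODE release 29 (20212). The tests were also run on simulated counts that held no GC trend, so that check does not cover the trend described below.

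The enzymes, lists, motifs and settings were chosen with earlier results of these data known. Named genes were the 9 enzymes, CYR61, up to 4 called genes of smallest adjusted p per list (or the 1 of smallest p), and the 5 nearest profiles to PHGDH and MTHFD2. Values of some folate enzymes outside the 9 are not reported here. Exon overlaps were searched on both strands. Within groups, libraries differed along GC content: Spearman's rho between GC and the log2 difference, across 10363 genes at 5 CPM or above, was -0.78 for CYR61 1 minus CYR61 2 and -0.73 for vector 2 minus vector 1, and -0.16 for the difference of the group means. Chi-square per degree of freedom was 14.7 between the CYR61 and 13.3 between the vector libraries, so no library was a copy of another. P-values of the main fit set the group difference against the spread between these libraries, of which the GC trend is a part. They do not cover the spread between independently made lines.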

Additional observations from a re-analysis of the deposited data

How the results depend on the processing

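Under 15 other settings planned for this comparison, 5 of the 9 enzymes (PHGDH, PSAT1, PSPH, MTHFD2 and ALDH1L2) were called lower in each, and SHMT1 and MTHFD1 in none. The number called lower ran from 5 to 7 over these settings and 0 were higher, and the CYR61 log2 fold change ran from 5.2 to 5.31. Outside the enzymes, 6 of the 8 lower pathway genes were called in each setting, and the exceptions were SLC1A5 and ATF4. Genes called over all tested genes (811) numbered 1677 with no filter, 3638 with the GC trend removed (811 shared) and 481 to 1331 with 1 library left out, where the lone library of a group was assumed to vary like the other pair. The 1 pathway gene called higher became 3 with DESeq2, 0 with limma-voom, 0 with library size alone, 3 with no filter, 0 with at least 5 CPM in 2 libraries, 9 with the GC trend removed, and 0 to 1 with 1 library left out. The cause of these changes was not tested. Over all tested genes, 17.1% were called higher with the GC trend removed, 4.03% with no filter and 3.2% with DESeq2.

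With the replicate block, 391 genes, 5 enzymes and 6 lower and 0 higher pathway genes were called; with the GC trend removed and the replicate block, 2187 genes and 6 higher pathway genes. Libraries of the same number deviated against each other (Pearson's r across 10377 genes -0.71). The GC trend within groups also ran in opposite directions by number, so this correlation cannot show whether the numbers pair the samples. With crossed numbers, a block added after the data were seen, 5624 genes and 8 enzymes were called. With 2 libraries per group, the lack of a call for SHMT1, MTHFD1 or MTHFD1L does not show that the levels were equal.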

Other observations

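FOLR1, the folate receptor alpha gene, was abundant in these cells, at 1350 and 1510 CPM in CYR61-expressing cells and 1720 and 1460 CPM in vector cells. The groups overlapped (log2 fold change -0.15, SE 0.12, edgeR adjusted p = 0.49). It was chosen after its values were seen. FOLR2 had 2 counts or fewer in each library.

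Of the sideroflexin genes, SFXN1 encodes a carrier of serine into mitochondria. SFXN1 was at 127 and 114 CPM in CYR61-expressing cells, against 92 and 92.2 CPM in vector cells (log2 fold change 0.39, edgeR adjusted p = 0.0795). SFXN3 was at 122 and 131 CPM in CYR61-expressing cells, against 179 and 161 CPM in vector cells (-0.43, edgeR adjusted p = 0.0575). SFXN2 had a log2 fold change of 0.50 (edgeR adjusted p = 0.118). None of these 3 passed the threshold, although SFXN1 was called in 4, SFXN2 in 2 and SFXN3 in 6 of 15 other settings, and they were chosen after their values were seen.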
